A study of Mus musculus with 12 samples.

Results

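The 706 peaks described here are the H3K36ac peaks at zinc-finger protein genes in mouse liver tumours. A peak was taken when its interval overlapped, by 1 bp or more, a protein-coding gene of chromosomes 1 to 19 whose symbol is Zfp followed by a digit, extended by 5 kb on each side. The RefSeq table of GRCm38.p6, the assembly named mm10, holds 388 such genes, and the 706 peaks are 0.648% of the 108914 peaks on these chromosomes in 6 deposited lists (109597 on all chromosomes). At least 1 peak lay at 248 of the 388 genes (63.9%), where 65.2% of all 20560 protein-coding genes had one, and 140 had none in any library.

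The mark H3K36ac is an acetyl group on lysine 36 of histone H3. It was mapped by ChIP-seq, the sequencing of DNA precipitated with an antibody to the mark, in whole liver tumour from mice given anti-PD-1, an antibody against an inhibitory receptor of T cells. The control group is LysM-Cre (n = 3), in which Cre is driven by the lysozyme M gene in macrophages, neutrophils and related myeloid cells, and the other group is Trem2-MKO (n = 3), a myeloid-specific knockout of Trem2, a lipid-sensing receptor of macrophages. Both groups had the antibody, so no untreated tumour was compared, and the tumour model, the other alleles of the knockout and the age and strain of the mice are not given in the sources used here. Each list came from a single tumour library called replicate in the labels, and chromatin of tumour, stromal and immune cells is mixed in it. Fewer cells carrying the mark and less of the mark per cell cannot be told apart in such samples.

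The lists differed in length. On chromosomes 1 to 19, LysM-Cre replicates 1, 2 and 3 held 18167, 29731 and 19807 peaks, and for the 3 Trem2-MKO replicates the numbers were 29759, 6823 and 4627. Trem2 itself (chromosome 17, 48346401 to 48352276), taken with the same 5 kb on each side, had 1 peak in each of LysM-Cre replicates 1 and 2 and 0 in the other 4 libraries. Knockout in a minority of the cells of a tumour cannot be checked from a peak list. Of 4 genes that mark hepatocytes, Alb and Apoa1 had no peak in any library, Ttr had 1 in each of Trem2-MKO replicates 1 and 3, and Apob had 1 in Trem2-MKO replicate 1. The myeloid gene Lyz2, whose promoter drives the Cre, had none in any library, and the liver tumour marker Afp had 1 in LysM-Cre replicate 1. Read totals were not used here, so the number of peaks sets the precision, and the ratios below carry an exact 95% Poisson interval that covers counting error only.

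Most proteins named Zfp carry C2H2 zinc fingers, small folds held by zinc that read DNA bases. Many also carry a KRAB domain, which recruits TRIM28 and the methyltransferase SETDB1 to silence retroelements and imprinted loci. Many genes of this kind arose by tandem duplication and lie in clusters of related copies. Others are outside this family, such as the CCCH proteins Zfp36, Zfp36l1 and Zfp36l2, which bind and destabilise mRNA. H3K36ac is known mainly from promoters of active genes.

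Few promoters of zinc-finger genes held a peak. The RefSeq promoter table (GRCm38.p6) gives 394 promoters, from 250 bases before to 50 after an annotated start, for 325 of the 388 genes. A peak overlapped 6, 4 and 5 of these promoters in the LysM-Cre libraries, given here and below in the order of replicates 1, 2 and 3. In the Trem2-MKO libraries, in the same order, it overlapped 6, 5 and 0. The shares were 1.52%, 1.02%, 1.27%, 1.52%, 1.27% and 0%, the last of which allows up to 0.761%. Of the 19691 other promoters, 0.838%, 1.31%, 1.49%, 0.909%, 0.559% and 0.213% held a peak in the same order. The zinc-finger share was the higher one in 3 of 6 libraries (LysM-Cre replicate 1 and Trem2-MKO replicates 1 and 2), and no library had more than 6 such promoters.

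The sequences below are the promoters of the genes with a promoter peak in 2 libraries (Zfp346 and Zfp661), the one with the highest −log10 p (Zfp213), and, from a fixed list of well-studied members, one with a peak (Zfp148) and one without a peak in any library (Zfp932). Each is the 250 bases before the annotated start, 5′ to 3′ on the strand of the gene, from RefSeq GRCm38.p6, and capitals mark CG dinucleotides, the sites of CpG methylation. They lie at chr13:55105059-55105308 (plus strand), chr2:127587095-127587344 (minus), chr17:23564227-23564476 (minus), chr16:33381052-33381301 (plus) and chr5:109996260-109996509 (plus), in that order.
Zfp346: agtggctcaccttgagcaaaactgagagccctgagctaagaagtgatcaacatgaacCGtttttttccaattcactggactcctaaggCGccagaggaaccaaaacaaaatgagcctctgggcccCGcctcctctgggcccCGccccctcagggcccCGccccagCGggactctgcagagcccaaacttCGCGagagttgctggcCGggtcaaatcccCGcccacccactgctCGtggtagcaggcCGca
Zfp661: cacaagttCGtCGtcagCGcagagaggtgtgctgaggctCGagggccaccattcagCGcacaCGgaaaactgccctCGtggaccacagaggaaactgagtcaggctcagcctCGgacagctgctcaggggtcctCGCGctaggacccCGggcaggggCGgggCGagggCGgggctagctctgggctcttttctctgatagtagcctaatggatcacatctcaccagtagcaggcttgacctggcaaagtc
Zfp213: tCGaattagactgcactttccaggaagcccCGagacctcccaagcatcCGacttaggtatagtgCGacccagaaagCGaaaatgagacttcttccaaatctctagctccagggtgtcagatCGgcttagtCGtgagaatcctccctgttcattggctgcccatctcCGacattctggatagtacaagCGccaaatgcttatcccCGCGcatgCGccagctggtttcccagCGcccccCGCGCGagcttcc
Zfp148: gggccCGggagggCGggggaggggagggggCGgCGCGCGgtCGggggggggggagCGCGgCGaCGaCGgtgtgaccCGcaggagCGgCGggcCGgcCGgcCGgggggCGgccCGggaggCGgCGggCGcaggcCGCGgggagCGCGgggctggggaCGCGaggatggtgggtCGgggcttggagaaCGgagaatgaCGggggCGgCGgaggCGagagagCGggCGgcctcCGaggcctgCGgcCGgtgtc
Zfp932: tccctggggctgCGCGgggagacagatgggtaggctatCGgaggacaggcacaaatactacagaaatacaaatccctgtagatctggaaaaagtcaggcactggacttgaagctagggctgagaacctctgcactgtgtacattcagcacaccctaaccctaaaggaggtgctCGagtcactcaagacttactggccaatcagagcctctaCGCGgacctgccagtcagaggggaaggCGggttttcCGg

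The stretch before Zfp148 holds 40 CG dinucleotides, against 12 in Zfp346, 14 in Zfp661, 16 in Zfp213 and 8 in Zfp932. Zfp346 encodes a protein that binds double-stranded RNA, and its promoter peaks in LysM-Cre replicates 1 and 3 had a fold over local background of 2.95 and 3.87, as the authors' peak caller gave it, with summits 9 bp after and 99 bp before the start. The Zfp661 promoter was covered in the same 2 libraries, at a fold of 3.22 with the summit 9 bp after the start and a fold of 4.49 with the summit 279 bp before it. Zfp148, a Krüppel-type transcription factor gene, had its promoter peak in Trem2-MKO replicate 2 alone (fold 2.15, −log10 p of 9.89), and the Zfp213 promoter had one in the same library (fold 3.23, −log10 p of 11.5).

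Over whole 300-base promoters, the 23 zinc-finger promoters with a peak in any library had a median of 16 CG dinucleotides (range 3 to 44). The 371 without a peak had a median of 13 (range 0 to 59), and the 19691 other promoters had 14. The median share of G and C was 55.3%, 54.7% and 57.0%. The CG counts of promoters with a peak thus lay inside the range of those without. The protocol in the labels cut amplified DNA with BpmI, whose site is CTGGAG on either strand. That site was in 10 of the 23 promoters with a peak (43.5%), in 130 of the 371 without (35.0%) and in 33.1% of other promoters.

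The density of peaks at zinc-finger genes was near that of other genes of their length in all 6 libraries. Summed over the 388 windows (17.1 Mb), density was 7.56, 10.9 and 7.21 peaks per Mb in LysM-Cre, from 129, 186 and 123 peaks. It was 12.02, 2.99 and 1.70 peaks per Mb in Trem2-MKO, from 205, 51 and 29 peaks. These sums count a peak once for each window it touches, which gives 723 pairs of a gene and a peak from the 706 peaks. The means were 8.56 ± 2.04 peaks per Mb in LysM-Cre and 5.57 ± 5.62 in Trem2-MKO (SD, n = 3 each), and the groups overlapped. Trem2-MKO replicate 1 and LysM-Cre replicate 2, which have the longest lists, had the highest densities, and Trem2-MKO replicates 2 and 3, which have the shortest, the lowest.

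To set length aside, the peaks expected at each gene were taken from the density of 19986 other protein-coding genes in the same of 10 bins of gene length. Expected counts were 124, 197 and 143 in LysM-Cre and 205, 47.0 and 23.9 in Trem2-MKO. The ratio of observed to expected peaks was 1.04 (95% interval 0.870 to 1.24), 0.945 (0.814 to 1.09) and 0.860 (0.715 to 1.03) in LysM-Cre. In Trem2-MKO it was 0.998 (0.866 to 1.14), 1.08 (0.808 to 1.43) and 1.21 (0.813 to 1.74). Every interval holds 1, so a difference from other genes was not detectable in any library at this number of peaks.

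The ratio averaged 0.949 ± 0.0914 in LysM-Cre and 1.10 ± 0.108 in Trem2-MKO (SD, n = 3 each). The difference of −0.150 is larger than either SD, but the groups overlapped, since LysM-Cre replicate 1 at 1.04 lay above Trem2-MKO replicate 1 at 0.998. The 2 highest ratios belonged to the 2 shortest lists. The size of the difference depended on the peaks and libraries used. It was −0.261 with every list reduced to its 4627 strongest peaks, −0.460 when peaks needed a −log10 q of at least 2, and −0.0488 without Trem2-MKO replicates 2 and 3, on 1 remaining Trem2-MKO library.

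**Figure D1:**
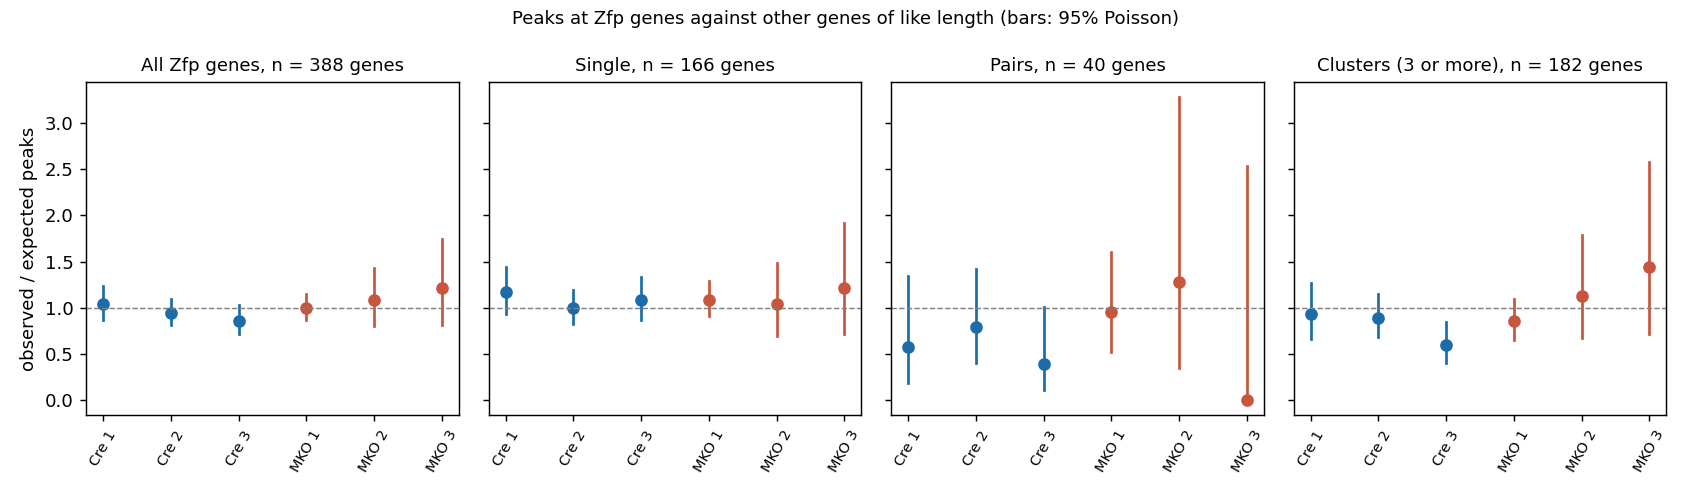
Observed over expected peaks (vertical axis, no unit) at all 388 Zfp genes and at single, paired and clustered genes, 1 point per library (Cre for LysM-Cre and MKO for Trem2-MKO), with 95% Poisson bars and a dashed line at 1. For all genes every bar crosses 1, and the cluster value of LysM-Cre replicate 3 (0.594) is the only one in the cluster panel whose bar stays below 1.

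Across gene lengths, zinc-finger and other genes were compared within each library, since the lists differ in length. Zinc-finger genes ranged from 2286 to 575349 bp. In the shortest bin, up to 7977 bp, the difference in density (zinc-finger minus other genes) was 1.19 ± 4.64 peaks per Mb (mean ± SD over 6 libraries), and in the longest, from 57912 bp, it was 0.0692 ± 0.816. Zinc-finger genes were lower in 5 of 6 libraries in 3 of the 10 bins, those from 7984 to 10931, from 21509 to 26352 and from 26405 to 31824 bp. The differences there were −1.54 ± 2.24, −0.412 ± 2.36 and −1.47 ± 1.27 peaks per Mb, so the last was larger than its spread. In that bin the 39 zinc-finger genes had 7.23, 10.5 and 5.26 peaks per Mb in LysM-Cre, where other genes had 7.68, 12.2 and 8.65. In Trem2-MKO they had 10.5, 1.31 and 1.31, where other genes had 12.8, 2.34 and 1.24. In the other 7 bins zinc-finger genes were lower in 2 or 3 of 6 libraries.

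**Figure D2:**
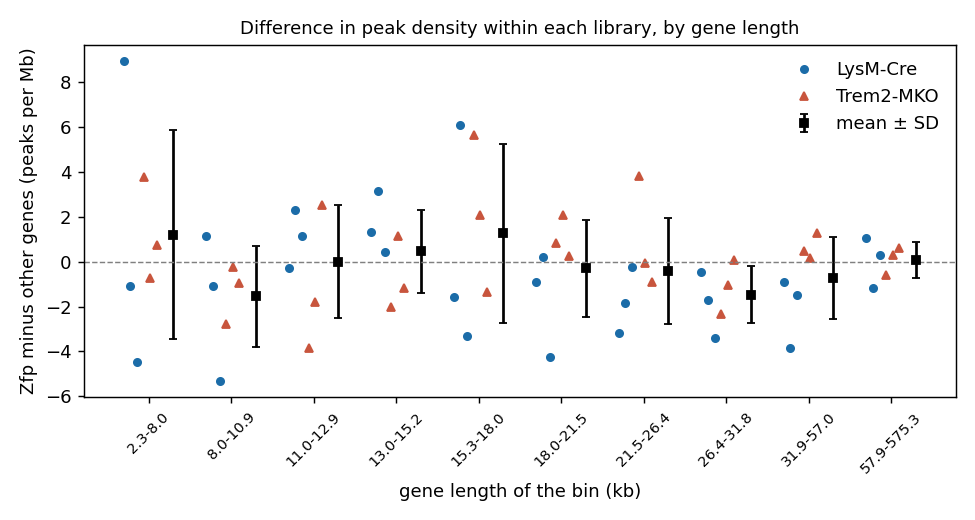
Difference in peaks per Mb between Zfp and other genes within each library (vertical axis; circles LysM-Cre, triangles Trem2-MKO, squares with bars mean and SD over 6 libraries) in 10 bins of gene length in kb (horizontal axis), with a dashed line at 0. The bar stays below 0 in the bin from 26405 to 31824 bp (−1.47 ± 1.27) and crosses 0 in the other 9.

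Long genes held a large part of the peaks, in about the proportion of their windows. The 23 zinc-finger genes over 100 kb are 5.93% of the genes and 33.0% of the window length, and they held 36.7% of the gene and peak pairs. Their ratio to other genes of like length was 1.10 ± 0.138 over the 6 libraries (SD), and that of the 365 shorter genes was 0.985 ± 0.152. Among the shorter genes, LysM-Cre replicate 3 had 69 peaks where 95.5 were expected (ratio 0.723, 95% interval 0.562 to 0.915), and the intervals of the other 5 libraries held 1. These expected numbers were matched by gene length and not by chromosome. Chromosome 18, with the long genes Zfp521 and Zfp407, had 11 genes (2.84%) and 79 of 723 pairs (10.9%). Chromosome 7 had 93 genes (24.0%) and 130 pairs (18.0%). Shares of genes take no account of window length, and density does. The density at zinc-finger genes of chromosome 7 was 9.03, 12.7 and 4.68 peaks per Mb in LysM-Cre, where other genes of that chromosome had 6.49, 10.6 and 6.49. In Trem2-MKO it was 13.7, 2.34 and 1.00, where they had 11.0, 2.11 and 1.31.

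Genes were called clustered when 3 or more zinc-finger genes followed each other at gaps of 100 kb or less. This gave 30 clusters with 182 genes, 20 pairs with 40 genes, and 166 single genes, with median lengths of 15.7, 17.7 and 20.05 kb. Single genes had 84, 115 and 89 peaks in LysM-Cre and 130, 29 and 18 in Trem2-MKO. Clustered genes had 40, 60 and 30 in LysM-Cre and 61, 18 and 11 in Trem2-MKO. Paired genes had 5, 11 and 4, and 14, 4 and 0.

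Against other genes of like length, single genes had ratios of 1.17, 0.993 and 1.08 in LysM-Cre and 1.09, 1.04 and 1.21 in Trem2-MKO. Clustered genes had 0.928, 0.893 and 0.594 in LysM-Cre and 0.855, 1.13 and 1.44 in Trem2-MKO. The clustered ratio lay below the single ratio in 4 of 6 libraries, namely all 3 LysM-Cre libraries and Trem2-MKO replicate 1, and above it in the 2 shortest lists. The difference, clustered minus single, was −0.276 ± 0.196 in LysM-Cre and 0.0292 ± 0.237 in Trem2-MKO (SD, n = 3 each), and the groups overlapped. Over 6 libraries it was −0.123 ± 0.256, less than its own spread. Without the 23 genes over 100 kb, 21 of them single, it was 0.0241. The other 2 are the clustered genes Zfp993 (479 kb) and Zfp978 (267 kb), named here after their values were seen, which had 0.361 and 0.0795 times the peaks expected from their length, summed over libraries.

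LysM-Cre replicate 3 had the lowest clustered value, 30 peaks where 50.5 were expected (95% interval of the ratio 0.401 to 0.848). This expected number, 8.39 peaks per Mb, was matched by gene length and not by chromosome. In this library other genes of chromosomes 4, 7, 13 and 17, where the largest clusters lie, had 2.98, 6.49, 3.47 and 8.25 peaks per Mb. With the chromosome held constant as well, clustered minus single over the 6 libraries was −0.0222. In the other 5 libraries the interval of the clustered ratio held 1. Pairs gave 0.576, 0.795 and 0.394 in LysM-Cre and 0.958, 1.28 and 0 in Trem2-MKO, from 14 peaks or fewer per library, and all their intervals held 1.

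The clusters differed among themselves, and single libraries supplied much of what some held. The largest, on chromosome 13 (67038594 to 67827000) with 23 genes from Zfp712 to Zfp273, had 6, 11 and 0 peaks in LysM-Cre and 2, 1 and 2 in Trem2-MKO. In LysM-Cre replicate 3, where it had 0, other genes of chromosome 13 had 3.47 peaks per Mb. Counts for a cluster include the ground between its genes and count each peak once. The 13-gene cluster on chromosome 17 (21383707 to 21994366, Zfp677 to Zfp943) had 6, 7 and 7 peaks in LysM-Cre and 7, 3 and 2 in Trem2-MKO, so it was marked in all 6 libraries.

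On chromosome 7, the 15-gene cluster around Zfp568 (29768552 to 30169775) had 2, 4 and 1 peaks in LysM-Cre and 5, 1 and 0 in Trem2-MKO. The 8-gene cluster from Zfp607b to Zfp850 (27674661 to 28014210) had 1, 12 and 2, and 7, 1 and 0. LysM-Cre replicate 2 thus supplied 12 of the 23 peaks of this cluster. On chromosome 9, the 5-gene cluster from Zfp560 to Zfp846 (20345136 to 20605404) had 10 of its 14 peaks in Trem2-MKO replicate 1.

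The 9-gene cluster on chromosome 4 (147124882 to 147849126, Zfp978 to Zfp933) had 5, 9 and 4 peaks in LysM-Cre and 3, 3 and 5 in Trem2-MKO. Trem2-MKO replicate 3, whose list is the shortest, thus had as many peaks there as LysM-Cre replicate 1. The 7-gene cluster from Zfp553 to Zfp689 on chromosome 7 (127233061 to 127449158) had 6 peaks, all outside the windows of its genes, so none of the 7 was marked. The 3-gene cluster from Zfp972 to Zfp931 on chromosome 2 (177903064 to 178078425) had no peak in any library. The clusters named here were chosen after their values were seen. Copies in such clusters can be alike enough for reads to fit several places, and how the aligner placed those reads is not given in the sources used here.

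Peaks recurred in 2, 3 or 4 or more libraries at zinc-finger genes in shares near those of other genes of like length. For 5 or more the shares were higher than at like length, from few genes and without a test. A peak in 2 or more of 6 libraries was found at 121 of 388 genes (31.2%), where 38.1% of all genes and 35.0% of other genes of like length had one. For 3 or more libraries it was 60 genes (15.5%), where the values were 21.1% and 15.3%. For 4 or more libraries it was 25 genes (6.44%), where they were 11.0% and 6.25%. For 5 or more libraries it was 14 genes (3.61%), where 5.11% of other genes and 2.38% of those of like length had one. For all 6 it was 4 genes (1.03%), where 1.58% of all genes and 0.531% of other genes of like length had one. The genes in 3 or more libraries had a median length of 43681 bp, and the 140 with no peak 14059 bp. Among single genes 42 of 166 (25.3%) were in 3 or more libraries where like length gave 21.8%, and among clustered genes 15 of 182 (8.24%) where it gave 10.4%. The 60 genes became 14 when −log10 p had to reach 5, 4 when −log10 q had to reach 2 and 8 with lists of equal length. With 3 of 5 libraries required, they became 39 without LysM-Cre replicate 1, 37 without LysM-Cre replicate 2 and 32 without Trem2-MKO replicate 1. The shares of all genes and of genes of like length were not computed under these settings. Whether these counts lie near them is therefore not known.

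**Figure D3:**
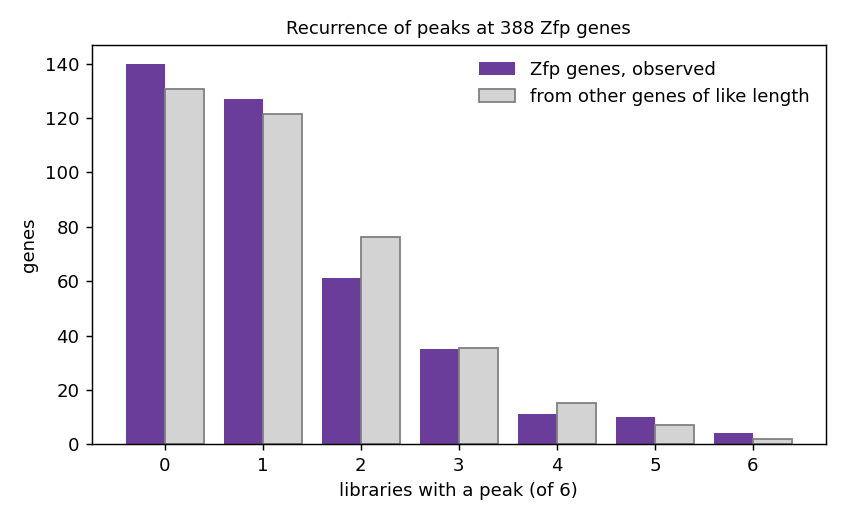
Number of Zfp genes (vertical axis) by the number of libraries with a peak (horizontal axis), observed (filled bars) and as other genes of like length would give (grey bars). There were 140 genes observed and 131 expected at 0 libraries, 35 observed and 35.2 expected at 3, and the widest gap is at 2 libraries, with 61 and 76.2.

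The 4 genes marked in all 6 libraries were long single genes. Zfp385b (chromosome 2, 77410622 to 77817706, 407 kb) had 4, 11 and 5 peaks in LysM-Cre and 10, 2 and 1 in Trem2-MKO. It also held the member peak with the highest −log10 p in 2 libraries, at 77525131 to 77525531 in Trem2-MKO replicate 1 (−log10 p of 11.9, fold 5.75) and at 77411803 to 77412318 in LysM-Cre replicate 3 (9.07, fold 4.10). Zfp407 (chromosome 18, 84207701 to 84589539), known for a role in glucose uptake by fat cells, had 7, 8 and 6, and 5, 2 and 2. Zfp804b (chromosome 5, 6769030 to 7344378), a paralogue of the psychiatric risk gene Zfp804a, had 5, 11 and 7, and 5, 1 and 1. Zfp536 (chromosome 7, 37318023 to 37774039), a repressor of neuronal differentiation, had 5, 1 and 2, and 3, 2 and 1.

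Summed over libraries, these 4 genes had 1.74, 1.69, 1.13 and 0.662 times the peaks expected from their length. None had more than 2 peaks in Trem2-MKO replicate 2 or 3, the libraries with the shortest lists.

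Next came the 10 genes marked in exactly 5 libraries, where like length gave 7.19. Zfp521, a transcription factor of progenitor cells that restrains fat-cell formation, had 3, 3 and 6 peaks in LysM-Cre and 3, 0 and 2 in Trem2-MKO. Zfp704 (183 kb) had 2, 1 and 5, and 5, 3 and 0, or 1.82 times the expected number. Zfp462, a chromatin regulator of neural development, had 1, 2 and 1, and 3, 0 and 1. Zfp277, Zfp532, Zfp609 and Zfp800 had 7 or 8 peaks each, between 0.781 and 1.29 times the expected number. Zfp993 (chromosome 4) had 8, or 0.361 times, over a listed interval of 479 kb that overlaps the neighbouring Zfp981.

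Of the 25 genes marked in 4 or more libraries, 9 were up to 100 kb long and 16 were longer. The short ones named next, apart from Zfp217, were chosen after their values were seen. Zfp867 (11.3 kb) had 1 peak in each LysM-Cre library and 1 in Trem2-MKO replicate 3, and Zfp39 (16.1 kb) had 0, 3 and 1, and 1, 1 and 0. Their sums of 4 and 6 peaks were 4.49 and 5.44 times what length gave, from very small counts and without a test. Zfp81 (29.6 kb, in a cluster on chromosome 17) had 2, 1 and 1, and 1, 0 and 1. Zfp217, an oncogene of breast cancer, had 1, 1 and 2, and 1, 1 and 0, over 43.0 kb.

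**Figure D4:**
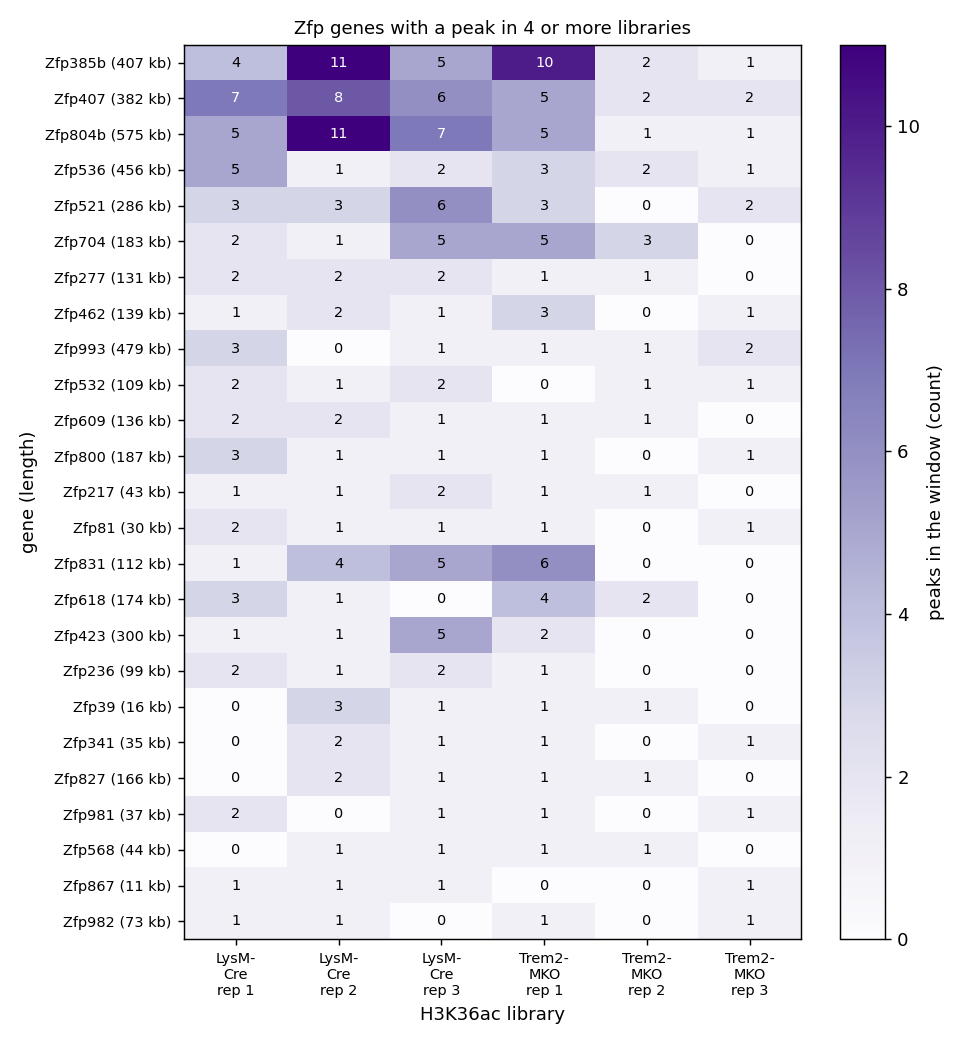
Peak count in the window (colour and number) of the 25 Zfp genes (rows, with length in kb) marked in 4 or more of the 6 libraries (columns). Counts run from 0 to 11, the highest stand at Zfp385b and Zfp804b in LysM-Cre replicate 2, and the columns of Trem2-MKO replicates 2 and 3 hold the lowest counts at most genes.

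Few genes separated the genotypes. A peak in all 3 LysM-Cre and in no Trem2-MKO library was found at 3 genes (0.773%), where 1.18% of all genes and 1.17% of genes of like length had this pattern. The reverse pattern was found at 0 zinc-finger genes, where 0.0584% of all genes had it. These shares are at or under the background, so the counts are not a result about zinc-finger genes. An exact permutation test of 3 libraries against 3 cannot go below 0.1, and none was run. With a library left out, the rule asked only for the libraries that remained, which is looser. Without LysM-Cre replicate 1, 2 or 3 the 3 genes became 6, 9 and 14. Without Trem2-MKO replicate 1, 2 or 3 they became 6, 3 and 4, and the count of the reverse kind became 1, 3 and 2. The share of all genes under the looser rule was not computed, so these counts are not a result about zinc-finger genes either.

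The 3 genes were Zfp354a, Zfp661 and Zfp286. At Zfp354a, a KRAB zinc-finger gene (chromosome 11, 51059225 to 51072799), the peaks of the 3 LysM-Cre replicates overlapped each other at the lower-coordinate end of the gene, with folds of 4.39, 2.75 and 4.32 and summits 123, 174 and 34 bp inside it. The 3 Trem2-MKO libraries had no peak in the window. Of the other genes of this family, Zfp354c had 1 peak in LysM-Cre replicate 1 and Zfp354b had none in any library. Of these 3 Zfp354 genes 2 were marked, where like length gave 57.5%.

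At Zfp661 (chromosome 2, 127574617 to 127587094), replicates 1 and 3 shared the promoter peak described above. Replicate 2 had its peak beyond the other end of the gene, at 127570159 to 127570502, with a fold of 2.70. At Zfp286 (chromosome 11, 62751951 to 62789506), replicates 1 and 3 shared a region at 62756741 to 62757408 with folds of 4.10 and 4.43, and replicate 2 had its peak at 62774582 to 62775074 with a fold of 3.26. Replicates 1 and 3 each had 1 further peak in this gene, at different places. So Zfp354a was the 1 gene of the 3 where the same place was called in all LysM-Cre libraries. Its peak in replicate 2 had a −log10 q of 0.964, where those of replicates 1 and 3 had 2.74 and 2.91. That peak is thus lost when −log10 q has to reach 2.

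Most peaks stood in a single library. Merging overlapping peaks of the 6 lists gave 657 regions at zinc-finger genes, of which 612 held a peak of 1 library, 41 of 2, 4 of 3, and 0 of 4 or more. The share in 2 or more was 6.85% (95% Wilson interval 5.16 to 9.04). At other genes of the same length range it was 4.19% (4.00 to 4.39), and over all regions 4.44%. That range is the whole span from 2286 to 575349 bp, so this share was not matched in bins of gene length. The interval at zinc-finger genes lies above the others, but regions of 1 cluster are not independent, and the interval covers counting error only. Of the 41, 20 joined 2 LysM-Cre libraries (48.8%), 5 joined 2 Trem2-MKO libraries (12.2%) and 16 joined 1 of each (39.0%). Among all 4285 regions in 2 libraries these shares were 38.2%, 13.4% and 48.4%, and the difference was not tested.

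The 4 regions in 3 libraries lay at Zfp354a, at Zfp981 within Zfp993, in Zfp804b and beside Zfp979. The region at Zfp981 (chromosome 4, 146535360 to 146536513) had folds of 2.40 in LysM-Cre replicate 1, 4.03 in Trem2-MKO replicate 1 and 3.92 in Trem2-MKO replicate 3. The region in Zfp804b (chromosome 5, 7173184 to 7173865) had 3.78 and 3.54 in LysM-Cre replicates 2 and 3 and 3.33 in Trem2-MKO replicate 1. The region beside Zfp979 (chromosome 4, 147609945 to 147611013) had 2.57 and 4.43 in LysM-Cre replicates 2 and 3 and 2.41 in Trem2-MKO replicate 1. Only the Zfp354a region held libraries of 1 genotype alone. Regions in 3 libraries were 0.609% of those at zinc-finger genes and 0.292% of all regions, 304 in number. How many of the 304 held 1 genotype alone was not computed, so the 1 region here is not a result about zinc-finger genes.

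By the sum of −log10 p, the highest regions in 2 libraries lay in Zfp385b, beside Zfp78 and in Zfp936, Zfp286, Zfp661 and Zfp213. The one in Zfp385b (chromosome 2, 77525115 to 77525551) had folds of 5.75 and 2.45 in Trem2-MKO replicates 1 and 2. The one beside Zfp78 (chromosome 7, 6360628 to 6361277) had 4.25 and 2.72 in LysM-Cre replicates 1 and 2, and the one in Zfp936 (chromosome 7, 43171030 to 43172052) had 2.63 and 4.02 in Trem2-MKO replicates 2 and 3. The one in Zfp213 (chromosome 17, 23557644 to 23558331) had 3.06 and 2.60 in LysM-Cre replicates 1 and 3. Zfp78, Zfp936 and Zfp213 also held the member peak with the highest −log10 p in LysM-Cre replicate 1 (11.2), Trem2-MKO replicate 3 (11.3) and Trem2-MKO replicate 2 (11.5). In LysM-Cre replicate 2 it was that of Zfp791 (chromosome 8, 85111904 to 85112263, −log10 p of 8.86, fold 4.14). By fold, other member peaks were higher in the 3 LysM-Cre libraries (up to 4.68, 4.32 and 4.49) and in Trem2-MKO replicate 2 (up to 3.63).

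Peaks at zinc-finger genes had folds near those of the rest of each list. The median fold was 3.22, 2.97 and 3.25 in LysM-Cre, where other peaks of the same list had 3.22, 3.01 and 3.25. In Trem2-MKO it was 3.05, 2.67 and 2.57, where other peaks had 3.05, 2.63 and 2.68. A q-value of 0.01 or less was reached by 19, 29, 22, 37, 7 and 4 of the peaks in the same order, which is 118 of 706 in all. These are 15.3%, 15.8%, 18.0%, 18.6%, 14.0% and 14.3% of the member peaks, where 14.6%, 17.2%, 16.0%, 17.1%, 13.2% and 9.42% of the other peaks reached it. Of the peaks of a library, 78.4% to 87.1% touched the body of a gene, and the rest lay only in the 5 kb beside it. Gene bodies also make up most of the summed window length. The share that length alone would give was not computed, nor was the share at other genes. A preference for gene bodies was therefore not tested. The farthest peak counted lay 4992 bp from a gene and the nearest left out 5015 bp, with 24 peaks in the last 1 kb inside the limit and 28 in the first 1 kb outside.

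Well-studied members, listed whatever their values, gave small counts outside the long genes. Of the mRNA-decay factors, Zfp36 (tristetraprolin) had 1 peak in each of LysM-Cre replicates 1 and 2, Zfp36l1 had 1 in Trem2-MKO replicate 1 and Zfp36l2 none. So 2 of these 3 were marked, where like length gave 39.6%. Of 5 KRAB factors of imprinting and retroelement silencing, 3 were marked, where like length gave 71.7%. Zfp568, which represses a placental transcript of Igf2, had 1 peak in each of LysM-Cre replicates 2 and 3 and Trem2-MKO replicates 1 and 2. Zfp57, which keeps imprints, had 1 in LysM-Cre replicate 2 and 1 in Trem2-MKO replicate 1, and Zfp809, which silences retroviruses, 1 in LysM-Cre replicate 1 and 1 in Trem2-MKO replicate 3. Zfp445 and Zfp932 had none.

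All 5 adipose and stromal factors were marked, with 37 peaks in all. Zfp423, which commits cells to the fat lineage, had 1, 1 and 5 peaks in LysM-Cre and 2, 0 and 0 in Trem2-MKO over 300.2 kb. Zfp516, a factor of brown fat, had 4 peaks and Zfp467 had 1. The 5 neural factors were all marked as well, with 66 peaks, of which Zfp804a had 11 and Zfp292 had 3. Like length gave 88.0% and 96.9% of genes marked for these 2 lists.

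Of 4 pluripotency factors, 3 were marked, where like length gave 55.1%. Zfp281 had 2 peaks in Trem2-MKO replicate 1 and 1 in replicate 3. Zfp42 (Rex1) had 1 in LysM-Cre replicate 3 and 1 in Trem2-MKO replicate 1, Zfp296 had 1 and Zfp143 none. Of the remaining 4, 3 were marked, where like length gave 73.0%. Zfp148 had 2 peaks in Trem2-MKO replicate 1 and 1 in replicate 2. Zfp106 had 2 in LysM-Cre replicate 3, Zfp207 had 1 in LysM-Cre replicate 2 and Zfp703 had none.

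Of 20 partners of KRAB proteins, which are not members, 16 had a peak in any library, where like length gave 80.9%. In 3 or more libraries it was 10 (50%), where like length gave 32.6%, over a median length of 36466 bp. Setdb1, the H3K9 methyltransferase, had 1 peak in each of LysM-Cre replicates 2 and 3 and Trem2-MKO replicates 1 and 2. Trim28, the corepressor that KRAB domains bind, had none in any library over a gene of 6.88 kb.

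Other gene families gave wider spreads or lower ratios. The ratio to other genes of like length, here in 5 bins fitted to each family, was 1.15 ± 0.522 for 40 Zbtb genes, 1.37 ± 1.48 for 27 Zkscan and Zscan genes and 0.822 ± 0.654 for 15 Zc3h genes (SD over 6 libraries). The highest Zkscan and Zscan value, 4.24, was that of Trem2-MKO replicate 2, with 8 peaks where 1.89 were expected. For 349 Vmn1r and Vmn2r genes, vomeronasal receptors that also lie in tandem clusters, it was 0.513 ± 0.137, below 1 in 6 of 6 libraries (0.358 to 0.718), where zinc-finger genes had 1.02 ± 0.121. The ranges of these 2 families did not overlap, and the difference was not tested.

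**Figure D5:**
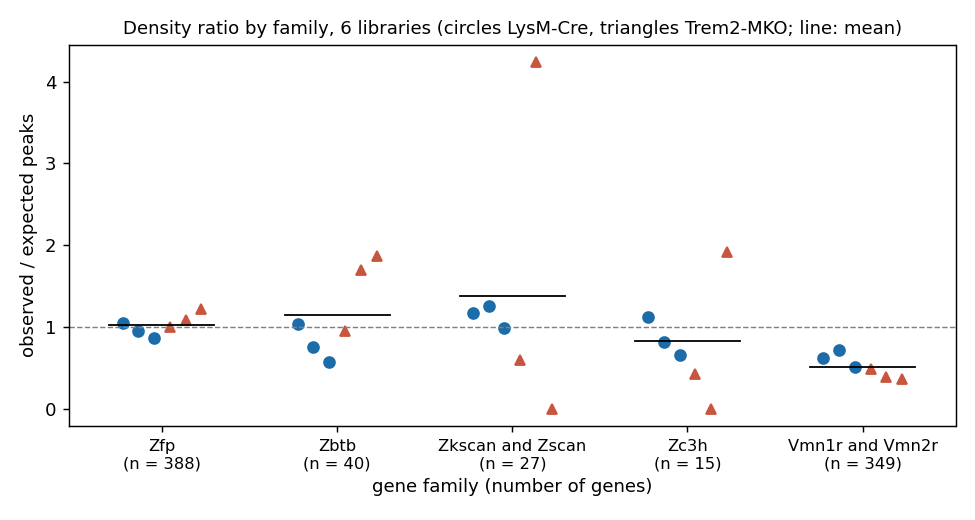
Observed over expected peaks (vertical axis) for 5 gene families (horizontal axis, with the number of genes), 1 point per library and a line at the mean of 6. Zfp points lie between 0.860 and 1.21, and those of the Vmn receptors between 0.358 and 0.718.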

How the data were processed

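The data were 6 H3K36ac peak lists, 1 per immunoprecipitate, and the 6 input samples were not analysed here. The submitters' processing notes name MACS2, Bowtie2, Trimmomatic, deepTools, Picard and SAMtools and the build mm10, with no version given in the sources used here. By their deposited names, the lists come from reads without duplicates, called against pooled control at a p-value limit of 0.01 and capped at 500000 peaks. Per the labels' protocols, precipitated DNA was amplified over the whole genome before library preparation, which can copy fragments unevenly. The values of a peak, all from the authors' peak caller, are an integer score, a fold ratio over local background, and the −log10 of a p-value and of a q-value.

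Genes came from a RefSeq table of GRCm38.p6. Positions listed below 3 Mb, where no list has a peak (the lowest peak starts at 3002088), removed 105 genes, none of them a member. For the expected counts, 186 other genes whose windows overlap a member's were left out. Overlaps, length bins and intervals were computed in Python 3.11.15 with pandas 2.3.3, numpy 2.4.6 and scipy 1.17.1. The counting was checked on random intervals. The ratio was checked on simulated counts with the same density at all gene lengths, so the correction for length was not tested. No test was run, because the members and lists were chosen with earlier results of these data known, and 3 libraries against 3 cannot go below a p of 0.1. Labels do not tie each library to its own mouse, although their design text counts 3 mice per genotype.

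Named genes follow a rule: genes in 4 or more libraries (the first 12), genes in 3 of 3 libraries of 1 genotype and 0 of the other, regions in 3 or more libraries and the 6 in 2 libraries with the highest summed −log10 p, the member peak with the highest −log10 p in each list, and a fixed list of well-studied members. Alternatives were stricter peaks, equal list lengths, other windows, other comparison genes, other bins and gaps, and leaving out each library.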

Additional observations from a re-analysis of the deposited data

How the results depend on the processing

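The density ratio, 1.02 over the 6 libraries, stayed within its spread (SD 0.121) in all 12 alternatives that left out no single library (0.961 to 1.13) and between 0.986 and 1.06 without each library. The difference between genotypes, −0.150, was −0.460 when peaks needed a −log10 q of at least 2, −0.261 when every list was reduced to its 4627 strongest peaks, and −0.200 to −0.0921 without each library. Clustered minus single, −0.123, became 0.284 under that q limit, and was −0.194 to −0.0505 without each library; it stayed within its spread of 0.256 in the other 14 of 15 alternatives, among them chaining gaps of 50 and 250 kb and the same chromosome for the comparison genes (−0.0222).

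The 60 recurrent genes became 14 when −log10 p had to reach 5, 4 under the q limit, 8 with equal lists and 121 when 2 libraries sufficed; without each library there were 32 to 57, the lowest without Trem2-MKO replicate 1. The 3 LysM-Cre genes became 1, 0 and 0 under the first 3 of these and 5 without Trem2-MKO replicates 2 and 3; without each library there were 3 to 14, and 0 to 3 of the reverse kind. Fewer peaks or libraries enter these counts by construction, and with a library left out the genotype rule asks only for the libraries that remain. The shares of all genes under these settings were not computed. Recurrence and genotype counts do not use comparison genes, so those alternatives were not run on them. Leaving out both short Trem2-MKO lists, Zfp993 or genes over 100 kb was chosen after seeing the data. No paired analysis was possible because the results come from no test, and the library names of the 2 genotypes carry different numbers. Read totals were not used, so precision is limited by the number of peaks, and the shortest list gave 28 member peaks.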

Other observations

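On chromosome X, outside the 19 chromosomes described, 9 further protein-coding Zfp genes had 3 peaks in the 6 libraries. Zfp711, an X-linked intellectual disability gene, had 1 in each of LysM-Cre replicates 2 and 3, and Zfp449 had 1 in Trem2-MKO replicate 1.

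Along the 325 zinc-finger genes with a strand in the promoter table, summits were spread over the whole gene. With each gene cut into 3 parts of equal length, the ratio to other genes of like length was 1.12 ± 0.425 in the 5 kb upstream (SD over 6 libraries), 1.02 ± 0.228 in the 5′ part, 0.962 ± 0.167 in the middle, 0.976 ± 0.359 in the 3′ part and 0.781 ± 0.448 in the 5 kb downstream. Summed over libraries, 61 summits stood in the 5 kb downstream where 65.3 were expected. The lower mean there includes Trem2-MKO replicate 3, which had 0 summits where 2.08 were expected. In the 3′ part, 119 summits stood where 146 were expected, summed over libraries. The ratio there was below 1 in the 3 LysM-Cre libraries (0.850, 0.849 and 0.694) and Trem2-MKO replicate 1 (0.678), and above 1 in Trem2-MKO replicates 2 and 3 (1.17 and 1.62). Only the interval of Trem2-MKO replicate 1 (0.447 to 0.986) excludes 1.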
